A study of Mus musculus with 4 samples.

Results

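The genes of glycolysis and of the response to low oxygen were described in cultured mouse periosteal macrophages. The set held 37 genes chosen by name from knowledge of the pathways, with earlier results of these data known. They were part of 17532 genes listed in either deposited table, and all 37 were listed in both tables. By role they were 18 enzymes of glycolysis, 4 membrane transporters of glucose or lactate, 3 enzymes that set the flux, 6 regulators of the hypoxia-inducible factor (HIF) pathway and 6 other response genes. RNA sequencing measured their expression in cells of wild type male C57BL/6 mice at postnatal day 28. Cells of the periosteum, the membrane that covers bone, were sorted with antibodies to CD45, CX3CR1 and either ACE or CD74, then cultured with 10 ng/ml M-CSF, a growth factor for macrophages. Each subset, CX3CR1+ACE+ and CX3CR1+CD74+, was cultured for 24 h with recombinant mouse periostin, a secreted matrix protein, at 500 ng/ml, or with PBS as vehicle. The 4 groups held 1 library each. The sources used here give neither the number of mice pooled nor whether cells positive for both ACE and CD74 were kept apart. Where 2 values of a subset stand together, the first is the vehicle library and the second the periostin library.

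Glycolysis splits glucose into pyruvate in the cytosol, and lactate dehydrogenase turns pyruvate into lactate, which leaves the cell through monocarboxylate transporters. Most steps have several gene copies, or isoforms, that differ in tissue and control. In oxygen, prolyl hydroxylases mark the HIF alpha subunits, and the VHL protein then directs them to degradation. When oxygen is scarce the alpha subunit pairs with ARNT and binds DNA at short sites, commonly with the core letters ACGTG, in genes that include many glycolytic enzymes. Macrophages raise glycolysis when they are activated by bacterial products, and HIF-1 takes part in that switch.

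The HIF core letters ACGTG were searched on both strands in the 250 bases before each gene start in RefSeq (GRCm38.p6), where a window was given for 33 of the 37 genes. At least 1 window held the letters in 19 of those 33 genes (57.6%), against 4998 of 27025 RefSeq genes with a window, non-coding genes included (18.5%). They were found in 8 of 18 enzymes, 3 of 3 transporters, 1 of 3 flux-setting enzymes, 3 of 5 regulators and 4 of 4 other response genes with a window. A match is a description of these letters and not a bound site, and CACGTG counts on both strands. The stretches printed here, 5′ to 3′ on the gene's strand, stop before any base of the window that GENCODE M21 annotates as an exon of the gene, and capitals mark the letters ACGTG or their reverse complement. Ldha is shown as the enzyme whose window held the most matches, Hif1a as the HIF subunit, and Slc16a3, Pfkfb3 and Pfkfb4 as genes that differed between the subsets. For Ldha 1 of 2 starts in RefSeq is shown, and the window of the other held no match. For Pfkfb3 the start nearer the end of the gene is shown, of 2 in RefSeq. The window of the other Pfkfb3 start held 1 match, outside the part that could be printed. No match was found for Pfkfb4.
Ldha, chr7:46845554-46845803, plus strand: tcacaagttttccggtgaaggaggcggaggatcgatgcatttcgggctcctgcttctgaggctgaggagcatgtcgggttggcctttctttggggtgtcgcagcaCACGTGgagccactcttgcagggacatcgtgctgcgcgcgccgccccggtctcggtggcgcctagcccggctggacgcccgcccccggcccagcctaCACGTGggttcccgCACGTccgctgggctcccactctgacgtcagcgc
Hif1a, chr12:73907617-73907866, plus strand: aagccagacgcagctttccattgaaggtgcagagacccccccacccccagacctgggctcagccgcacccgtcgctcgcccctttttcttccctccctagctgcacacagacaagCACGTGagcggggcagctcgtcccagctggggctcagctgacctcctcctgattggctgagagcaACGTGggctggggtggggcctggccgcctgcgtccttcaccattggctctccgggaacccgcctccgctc
Slc16a3, chr11:120948817-120949052, plus strand: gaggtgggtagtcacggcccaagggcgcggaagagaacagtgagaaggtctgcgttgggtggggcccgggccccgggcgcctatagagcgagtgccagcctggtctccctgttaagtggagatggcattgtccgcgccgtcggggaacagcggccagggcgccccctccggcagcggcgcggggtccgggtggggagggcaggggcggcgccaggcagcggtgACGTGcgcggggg
Pfkfb3, chr2:11502102-11502340, minus strand: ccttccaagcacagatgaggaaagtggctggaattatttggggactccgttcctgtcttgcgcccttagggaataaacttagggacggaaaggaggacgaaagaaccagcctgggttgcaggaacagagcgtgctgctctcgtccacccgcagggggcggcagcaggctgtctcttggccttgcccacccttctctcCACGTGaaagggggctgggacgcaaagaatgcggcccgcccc
Pfkfb4, chr9:108991652-108991777, plus strand: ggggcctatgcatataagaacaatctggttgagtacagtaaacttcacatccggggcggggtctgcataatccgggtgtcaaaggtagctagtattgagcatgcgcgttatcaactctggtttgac

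Levels are given as CPM, that is the deposited size-factor-scaled counts divided by their mean column total and multiplied by 1000000. Changes are log2 differences after adding 1 CPM to both levels, and a gene was called at 2-fold or more. Ratios are of CPM without that addition, with exact 95% intervals for counting error only, which do not cover variation between mice or cultures. The 4 libraries held 11846312 to 19798150 reads, and 1 read equalled 0.0491 to 0.0897 CPM. All 10 macrophage markers were detected in every library and summed to 7231 to 8647 CPM, most of it from Lyz2 (4386 to 6004), which neutrophils also express. Csf1r had 257 to 371 CPM, Adgre1 19.4 to 54.5, the sort gene Cx3cr1 14.5 to 21.7 and Mrc1 5.59 to 10.8. The Ace transcript did not follow the sort, with 2.76 and 2.80 CPM in the ACE+ libraries against 0.897 and 9.51 in the CD74+ libraries, whereas Cd74 stood at 531 and 552 against 850 and 1222. Markers of other cells were present too. All 9 neutrophil markers were listed in both subsets, and their sum reached 20782 and 25425 CPM for ACE+ against 11299 and 18331 for CD74+. Most of that sum came from S100a8 (5070 to 11740 CPM) and S100a9 (5223 to 11261).

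Per kilobase of gene, the pathway was led by the same enzymes in all 4 libraries. Pkm, the pyruvate kinase gene, had the highest level in each library, at 1156 to 1902 CPM per kb, although 15.3% of its exon length overlaps another gene. Aldoa, the main aldolase, followed at 741 to 909 CPM per kb and Gapdh, glyceraldehyde-3-phosphate dehydrogenase, at 338 to 408. Eno1, an enolase, ranked 4 in every library at 171 to 210 CPM per kb. Gapdh, Ldha, Pgam1, Tpi1 and Eno1 have closely similar copies or pseudogenes in the mouse genome that can share their reads. Among the lowest were isoforms better known from brain, muscle or heart, Aldoc at 0.495 to 2.77 CPM per kb, Ldhb at 0.914 to 3.69 and Pfkm at 0.364 to 3.98, together with Ankrd37, Pdk1, Epas1 and, in ACE+ cells, Eno2. Among the regulators Hif1a was highest in each library, at 19.1 to 26.2 CPM per kb, and Epas1, the other HIF alpha gene, was lowest at 1.42 to 3.34. The 18 enzymes together held 1.01% of all scaled counts in each ACE+ library, 1.15% in CD74+ cells with vehicle and 1.21% with periostin.

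**Figure D1:**
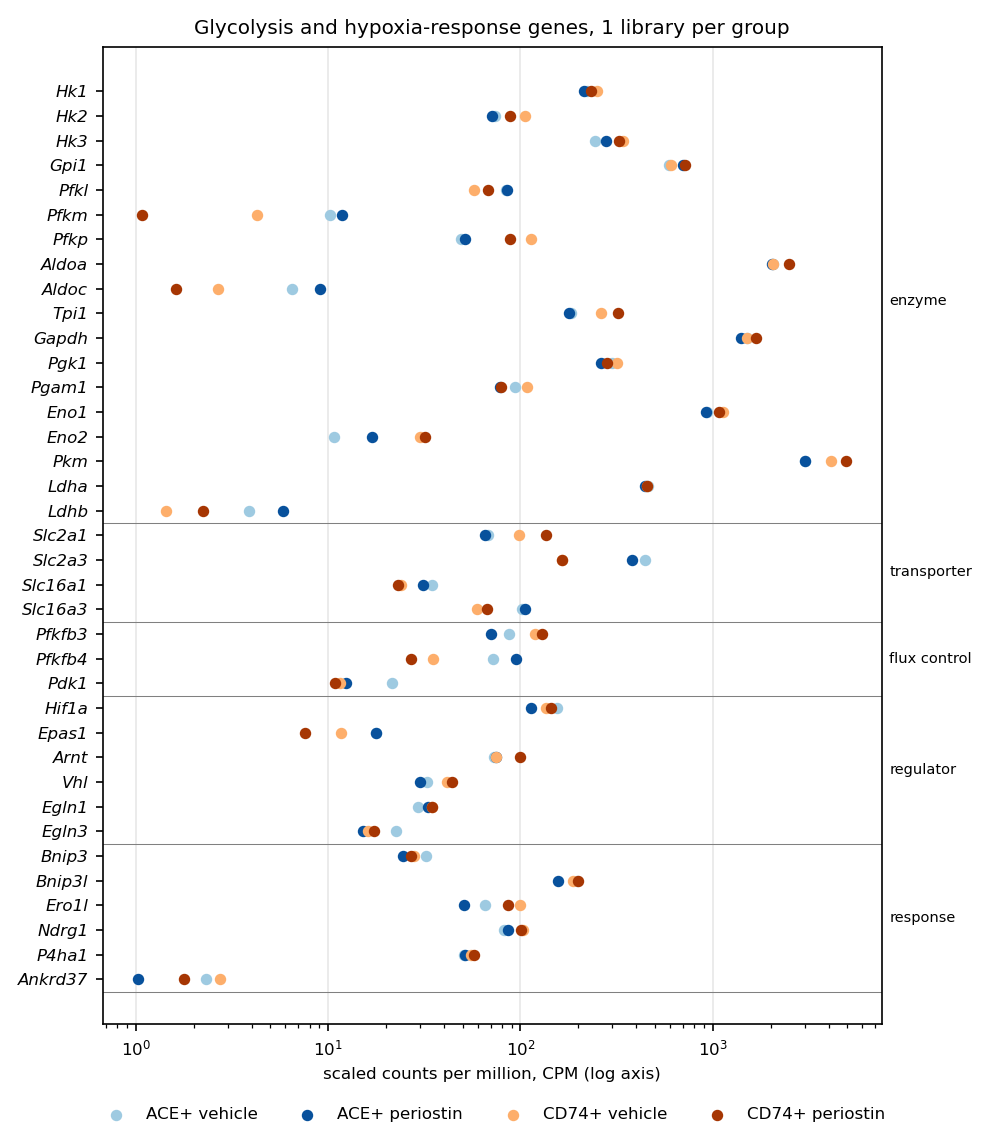
Level of each of the 37 genes in the 4 libraries, in CPM on a log axis, with genes grouped by role and 1 point per library. Blue points are ACE+ and orange points CD74+ cells. Pkm lies furthest to the right in every library.

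CD74+ cells were compared with ACE+ cells to ask whether the 2 subsets differ in these genes. Several differences were exchanges between partner genes of a family: CD74+ cells had more Slc2a1, Pfkp and Pfkfb3, and ACE+ cells more Slc2a3, Pfkm and Pfkfb4. Pfkl, the phosphofructokinase gene with the largest share, was lower in CD74+ cells too but did not pass the test given below. Eno2 was also higher in CD74+ cells and Aldoc lower, without an exchange with the main gene of their family. Slc16a3, the main gene of the lactate transporter pair, was lower without an exchange with Slc16a1. In a fit over all 4 libraries with periostin as a block, 11 of the 37 genes (29.7%) passed an adjusted p of 0.05 in edgeR's quasi-likelihood test, 6 higher and 5 lower in CD74+ cells. The same threshold was passed by 15.4% of all 13129 genes tested, 6.23% higher and 9.15% lower. At an unadjusted edgeR p under 0.05 these were 15 of the 37 and 26.4% of all genes. By role, the genes that passed the adjusted threshold were 3 of 4 transporters, 2 of 3 flux-setting enzymes, 5 of 18 glycolysis enzymes, 1 of 6 other response genes and 0 of 6 regulators. This fit has 1 residual degree of freedom, its spread is set by the trend over all genes, and a different response of the subsets to periostin counts as error. In bulk libraries, fewer cells of a type and less RNA per cell cannot be told apart.

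The glucose transporters went opposite ways. Slc2a3 (ENSMUSG00000003153, GRCm38 chromosome 6, 122727809 to 122801640), which encodes the high-affinity transporter GLUT3, had 446 and 382 CPM in the ACE+ libraries against 165 and 165 in the CD74+ libraries. Both ACE+ libraries stood above both CD74+ libraries, 2.70-fold (2.58 to 2.82) with vehicle and 2.31-fold (2.20 to 2.43) with periostin, and the fitted log2 difference of CD74+ from ACE+ was -1.32 (SE 0.19, edgeR adjusted p = 3.1e-10). Slc2a1 (ENSMUSG00000028645, chromosome 4, 119108711 to 119137983), which encodes the widespread transporter GLUT1, had 68.2 and 65.4 CPM against 98.7 and 135. The order of the libraries was thus reversed for Slc2a1, with a fitted difference of 0.79 (SE 0.20, edgeR adjusted p = 0.00156). As a ratio per kilobase, Slc2a1 to Slc2a3 was 0.388 and 0.435 for ACE+ against 1.51 and 2.07 for CD74+. Neutrophil markers, summed, were also lower in CD74+ cells than in ACE+ cells under the same treatment, and lymphocyte markers, 3 of 6 of them listed for CD74+, had 339 and 277 CPM against 14.2 and 5.74. Osteoblast markers, 6 of 7 of them listed for CD74+, had 699 and 538 CPM against 188 and 185. The unlisted one, Dmp1, had 184 and 114 CPM in the ACE+ libraries. Summed chondrocyte markers went the other way, at 233 and 800 CPM for ACE+ against 1335 and 949 for CD74+, with 10 of 11 listed for CD74+. Most of each sum was Col2a1, at 134 and 520 CPM against 730 and 676. With periostin Col10a1 (64.6 against 6.01 CPM) and Prg4 (31.4 against 23.1) were lower in CD74+ cells, and the other listed markers were higher. The part of these cells in the differences between subsets was not tested.

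Of the lactate transporters, 1 passed the test, lower in CD74+ cells. Slc16a3, which encodes the lactate exporter MCT4, had 102 and 106 CPM against 59.6 and 67.1. Its fitted difference was -0.71 (SE 0.21, edgeR adjusted p = 0.00653). Slc16a1, which encodes MCT1, ranged from 31.2 to 34.8 CPM in ACE+ and from 23.1 to 23.9 in CD74+ cells and did not pass (adjusted p = 0.257). The share of Slc16a3 in their summed level per kilobase stayed between 67.5% and 73.9% in the 4 libraries, so this pair showed no exchange of the kind seen for the glucose transporters.

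A similar exchange was seen in the phosphofructokinases, the enzymes of the committed step of glycolysis. Pfkp (ENSMUSG00000021196, chromosome 13, 6579768 to 6648777), the platelet-type isoform, had 48.8 and 51.5 CPM for ACE+ against 113 and 88.5 for CD74+. Its fitted difference was 1.00 (SE 0.21, edgeR adjusted p = 6.86e-05). Pfkm (ENSMUSG00000033065, chromosome 15, 98092589 to 98132451), the muscle isoform, had 10.2 and 11.8 CPM against 4.25 and 1.08, the last from 12 reads. ACE+ cells thus stood 2.41-fold (1.81 to 3.23) above CD74+ cells with vehicle and 10.9-fold (6.15 to 21.5) with periostin, and the fitted difference was -2.25 (SE 0.59, edgeR adjusted p = 0.00227). On the log2 scale of CPM the vehicle libraries alone gave -1.27 and the periostin libraries alone -3.45. Other genes overlap 10.7% of the exon length of Pfkm and 8.11% of that of Hif1a. Pfkl, the liver-type isoform, had 84.1 and 85.4 CPM against 57.3 and 67.9 and did not pass (adjusted p = 0.16). Of the summed phosphofructokinase level per kilobase, Pfkp made up 18.7% and 19.0% for ACE+ against 45.4% and 37.3% for CD74+. Pfkl made up 68.9% and 67.2% against 49.2% and 61.2%, and Pfkm 12.4% and 13.8% against 5.42% and 1.44%. The larger share of Pfkp in CD74+ cells thus stood against smaller shares of both Pfkl and Pfkm. The sum itself lay between 25.2 and 28.9 CPM per kb in all 4 libraries.

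The bifunctional enzymes that make or remove fructose-2,6-bisphosphate, the activator of phosphofructokinase, formed another such pair. Pfkfb4 (ENSMUSG00000025648, chromosome 9, 108991778 to 109032228) had 71.8 and 94.3 CPM for ACE+ against 35.2 and 27.1 for CD74+. ACE+ cells stood 2.04-fold (1.84 to 2.25) and 3.48-fold (3.08 to 3.94) higher, and the fitted difference was -1.41 (SE 0.23, edgeR adjusted p = 9.38e-08). Pfkfb3 (ENSMUSG00000026773, chromosome 2, 11471433 to 11554077), the isoform with the strongest kinase activity, had 87.6 and 70.3 CPM against 119 and 130, a fitted difference of 0.67 (SE 0.20, adjusted p = 0.00813). The ratio of Pfkfb3 to Pfkfb4 per kilobase was 0.538 and 0.328 against 1.49 and 2.12. The promoter stretch printed above holds CACGTG for Pfkfb3, at its start nearer the end of the gene, and no match for Pfkfb4. The part of these letters in the difference was not tested. Pdk1, a kinase that keeps pyruvate out of mitochondria by inhibiting pyruvate dehydrogenase, had 21.6 and 12.4 CPM against 11.5 and 10.8. The ACE+ vehicle library stood apart from the other 3 for Pdk1, and the gene did not pass the test (adjusted p = 0.383).

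**Figure D2:**
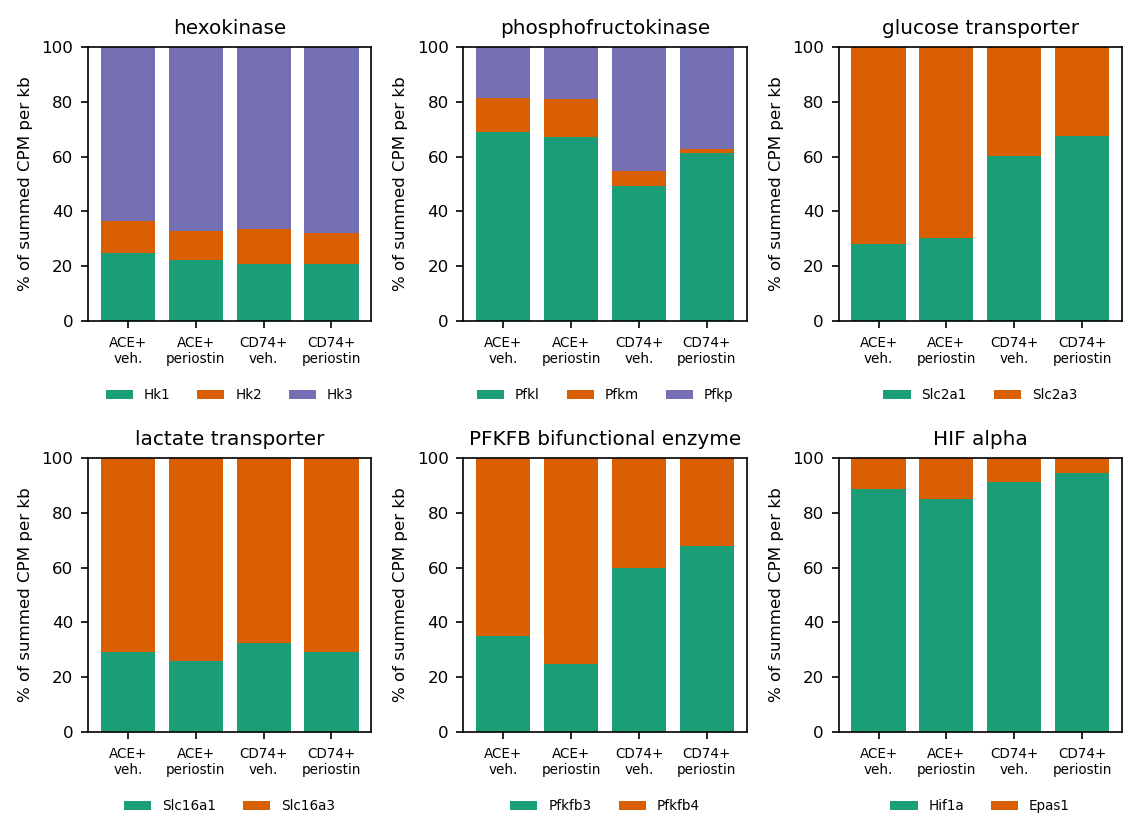
Share of each isoform or partner gene in the summed level per kilobase of its family, in percent, for 6 families in the 4 libraries (stacked bars from 0 to 100). Slc2a1, Pfkp and Pfkfb3 take a larger share in both CD74+ libraries than in both ACE+ libraries, while the hexokinase shares differ little, with Hk3 at 63.3% to 67.8%.

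Among the other enzymes, minor isoforms differed most. Eno2, the enolase best known from neurons, had 10.7 and 16.9 CPM for ACE+ against 30.0 and 31.9 for CD74+ (fitted difference 1.20, SE 0.31, edgeR adjusted p = 0.00145). Aldoc, the brain-type aldolase, had 6.52 and 9.03 CPM against 2.69 and 1.61, the last from 18 reads (fitted difference -1.85, SE 0.65, adjusted p = 0.033). Its adjusted p was 0.0751 in DESeq2, over a range of 0.0307 to 0.0751 in the 4 settings that tested it, and the vehicle and periostin libraries alone gave -1.28 and -2.48. Ldhb, the heart-type lactate dehydrogenase, had 3.89 and 5.79 CPM against 1.43 and 2.24 and did not pass (adjusted p = 0.207), although it was past 2-fold with either treatment. Major isoforms of the same steps lay closer together. Ldha, the main lactate dehydrogenase, had 458 and 446 CPM against 454 and 455, and its fitted difference was 0.01 (SE 0.19). Both counting intervals for Ldha held 1, with ratios of CD74+ to ACE+ of 0.992 (0.960 to 1.02) and 1.02 (0.985 to 1.06).

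An abundant enzyme passed as higher in CD74+ cells. Tpi1, triosephosphate isomerase, had 184 and 178 CPM for ACE+ against 262 and 321 for CD74+ (fitted difference 0.68, SE 0.18, edgeR adjusted p = 0.00299). Pkm, which had the highest level of the set, had 3030 and 3005 CPM against 4115 and 4943, and its adjusted p was 0.0656, with a range of 0.00753 to 0.119 over 5 settings of the fit. Of the hexokinases, which trap glucose in the cell as its phosphate, Hk2 had 73.6 and 71.2 CPM against 105 and 87.8 (adjusted p = 0.173), Hk3 243 and 280 against 343 and 326, and Hk1 215 to 251 in all libraries. None of the 3 hexokinases passed. Gpi1, Aldoa, Gapdh, Pgk1, Pgam1 and Eno1 did not pass either, with fitted differences between 0.04 and 0.26. The summed level of the 18 enzymes was 9846 and 9774 CPM against 11460 and 12910.

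At 2-fold without a test, CD74+ cells with vehicle had 2 of the 37 genes higher (Pfkp and Eno2), against 3.64% of all genes compared, and 5 lower (Pfkm, Aldoc, Ldhb, Slc2a3 and Pfkfb4), against 7.73%. With periostin 1 was higher (Slc2a1), against 6.94%, and 6 lower (the same 5 and Epas1), against 10.4%. As shares of the 37 genes these were 5.41% and 13.5% with vehicle and 2.70% and 16.2% with periostin. At 1.5-fold there were 3 higher and 7 lower with vehicle, against 11.9% and 17% of all genes, and 7 higher and 7 lower with periostin, against 18.5% and 20.8%. Slc2a1 stood just past the line with periostin, at a log2 difference of 1.03, and was at 0.90 when libraries were scaled to total reads. That scaling moved the median of all genes by -0.12 in this comparison.

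**Figure D3:**
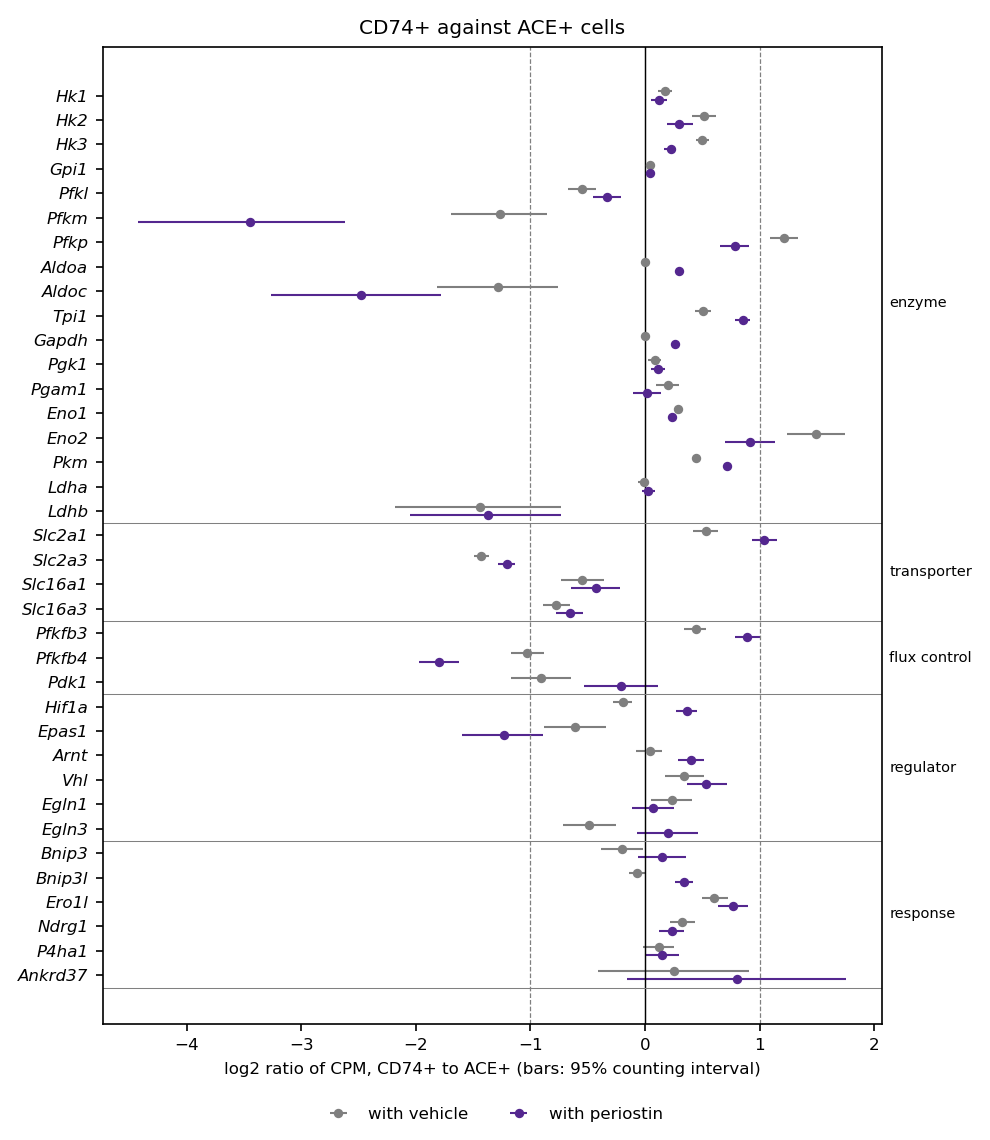
Log2 ratio of CPM in CD74+ to ACE+ cells for each gene, with vehicle (grey) and with periostin (purple), where bars are 95% counting intervals and dashed lines mark 2-fold. Slc2a3, Slc16a3, Pfkfb4, Pfkm and Aldoc lie left of 0 and Slc2a1, Pfkp, Pfkfb3, Tpi1 and Eno2 right of 0 with either treatment.

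None of the 6 regulators passed the subset test in edgeR or in DESeq2, and 1 of them, Epas1, had an unadjusted p under 0.05. Epas1, which encodes HIF-2 alpha, had 17.7 and 17.7 CPM for ACE+ against 11.6 and 7.54 for CD74+ (fitted difference -0.91, SE 0.40, edgeR adjusted p = 0.104). Hif1a, which encodes HIF-1 alpha, had 154 and 113 CPM against 135 and 145, so the CD74+ values lay inside the range of the ACE+ values. Arnt, the gene of their partner, had 72.7 and 75.0 CPM against 74.6 and 99.2, so CD74+ cells with periostin stood apart from the other 3 libraries. Vhl lay between 30.2 and 43.8 CPM, Egln1 between 29.5 and 34.8, and Egln3 between 15.2 and 22.5 (the last pair encode prolyl hydroxylases). The fitted differences of the 6 regulators ran from -0.91 to 0.44, and those of the 18 enzymes from -2.25 to 1.20. Enzymes and regulators were also compared by their medians, since genes are not replicates. With vehicle the median log2 difference of CD74+ from ACE+ was 0.13 for the enzymes and -0.08 for the regulators, and with periostin 0.17 and 0.27, against 0.00 for all genes in both comparisons. The enzyme median was thus the higher of the 2 with vehicle and the lower with periostin.

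The 6 other response genes included 1 that passed. Ero1l, which encodes an oxidase for protein folding in the endoplasmic reticulum, had 65.4 and 50.6 CPM for ACE+ against 99.7 and 86.2 for CD74+ (fitted difference 0.69, SE 0.21, edgeR adjusted p = 0.0113). The mitophagy receptor genes Bnip3 and Bnip3l had 24.5 to 32.3 and 156 to 198 CPM, and 22.3% of the exon length of Bnip3 overlaps another gene. Ndrg1, a stress-response gene, had 82.4 to 103 CPM and P4ha1, a collagen prolyl hydroxylase, 51.1 to 57.0. Ankrd37 was the weakest of the 37 genes in both ACE+ libraries per kilobase, with 20 to 46 reads in each of the 4 libraries.

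**Figure D4:**
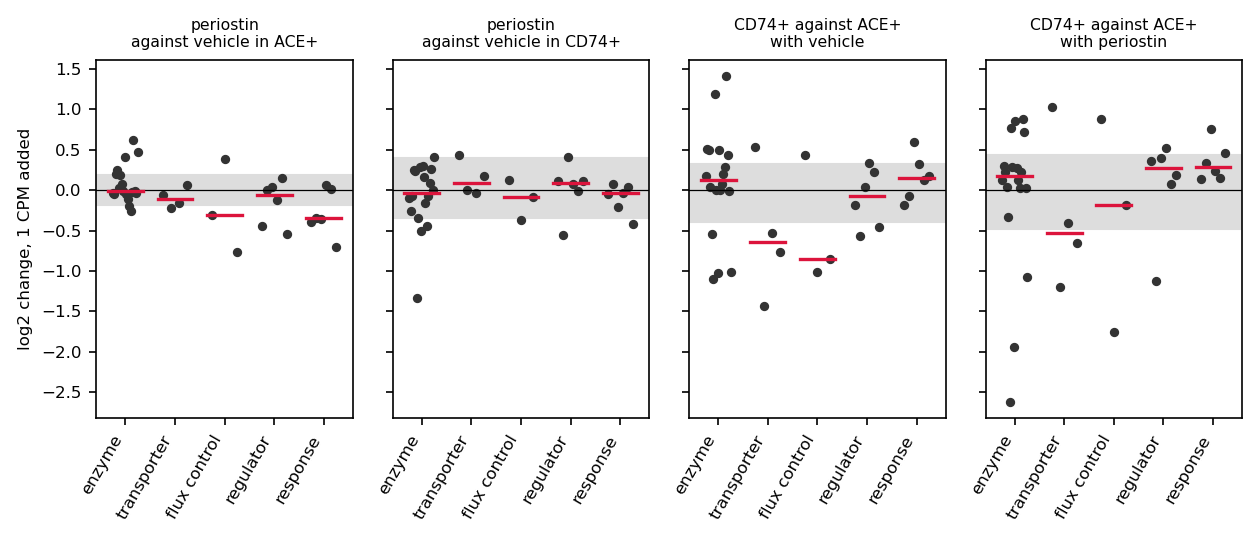
Log2 change with 1 CPM added for each gene (points) and the median of each role (red bars) in the 4 comparisons. Grey bands span the middle 50% of all genes compared. The periostin medians of enzymes, regulators and transporters lie from -0.11 to 0.09. For CD74+ against ACE+ cells the transporter and flux-setting medians are -0.64 and -0.85 with vehicle and -0.53 and -0.19 with periostin. These are medians of 4 and 3 genes with values on both sides of 0.

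Periostin was compared with vehicle within each subset to ask whether it altered these genes. In ACE+ cells none of the 37 genes was past 2-fold, where 1.47% of all genes were higher and 1.30% lower. In CD74+ cells 1 gene, Pfkm, was past 2-fold lower, where 5.25% of all genes were, and none was past 2-fold higher, where 6.69% were. At 1.5-fold ACE+ cells had 1 higher (Eno2) and 2 lower (Pdk1 and Ankrd37) of the 37, against 6.16% and 5.82% of all genes, and CD74+ cells had Pfkm alone lower, against 14.1%, and none higher, against 16.6%. A fit of a periostin effect common to both subsets called 0 of the 37 genes in edgeR's quasi-likelihood test and 0 in DESeq2, and 0 had an unadjusted edgeR p under 0.05, against 0.107% (0.0609% higher and 0.0457% lower) and 6.67% of all genes tested. The fitted common changes ran from -0.88 for Ankrd37 to 0.62 for Ldhb, genes of few reads with SEs of 0.86 and 0.72, and the median SE over the 37 genes was 0.21.

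In ACE+ cells several genes of the hypoxia response had lower values with periostin, none past 2-fold once 1 CPM was added. They are named here because their values were lower. Pdk1 had 12.4 CPM against 21.6 with vehicle, a ratio of 0.574 (0.486 to 0.677). Egln3, a hydroxylase gene that HIF itself induces, had 15.2 against 22.5 (0.673, 0.576 to 0.786), and Hif1a 113 against 154 (0.732, 0.691 to 0.775). Ero1l, Bnip3 and Bnip3l had ratios of 0.774, 0.758 and 0.790, and Ankrd37, with 21 against 37 reads, 0.444 (0.247 to 0.778). The median log2 change was -0.35 for the 6 other response genes, -0.06 for the regulators and -0.01 for the enzymes, against 0.00 for all genes. Counting intervals lay above 1 for 6 of the 37 genes and below 1 for 12, where 25.3% of all genes lay on each side. Of the response genes, Ndrg1 and P4ha1 were not lower, at ratios of 1.04 and 1.01. The regulators Epas1, Arnt, Egln1 and Vhl had ratios of 1, 1.03, 1.11 and 0.92, with intervals that held 1. Slc2a1 stood at 0.959 (0.885 to 1.04). Eno2 and Pfkfb4 had higher values with periostin, at 1.59 (1.32 to 1.92) and 1.31 (1.22 to 1.42). Of 28 other HIF target genes compared outside the set, 16 were higher and 12 lower, with a median log2 change of 0.02. Among the glycolytic enzymes the most abundant had values near those with vehicle, with Ldha at 0.973 (0.944 to 1.00), Pkm at 0.992 (0.980 to 1.00) and Aldoa at 0.995 (0.981 to 1.01), while Pgk1 and Pgam1 had ratios of 0.871 and 0.832. Chondrocyte markers stood at 233 CPM in sum in ACE+ cells with vehicle and 800 with periostin, with all 11 listed, and neutrophil markers at 20782 and 25425, and their part in these differences was not tested.

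In CD74+ cells the hypoxia-response genes named as lower in ACE+ cells had ratios on both sides of 1, 3 above and 4 below. They were picked by their ACE+ values, so less uniform ratios here would follow from that choice alone. Hif1a had 145 CPM with periostin against 135 with vehicle (1.08, 1.01 to 1.15). Egln3 had 17.4 against 16.1 (1.08, 0.895 to 1.31) and Bnip3l 198 against 188 (1.05, 0.997 to 1.11), so both intervals held 1. Pdk1, Bnip3 and Ero1l had ratios of 0.933, 0.964 and 0.864 and Ankrd37 0.652 (0.366 to 1.13). The intervals of Pdk1 and Bnip3 held 1 as well. The largest change in CD74+ cells was in Pfkm, at 1.08 against 4.25 CPM or 12 against 71 reads, 3.94-fold lower (2.12 to 7.99). It was no longer past 2-fold with a pseudocount of 5 CPM, at a log2 change of -0.61. Several abundant enzymes had intervals above 1, with Aldoa at 1.22 (1.20 to 1.24), Tpi1 at 1.23 (1.18 to 1.28), Pkm at 1.20 (1.19 to 1.21) and Gapdh at 1.12 (1.10 to 1.14). Slc2a1 had 135 against 98.7 CPM (1.36, 1.27 to 1.46) and Arnt 99.2 against 74.6 (1.33, 1.23 to 1.44). Others had intervals below 1, among them Pgam1 at 0.733, Pfkp at 0.784, Hk2 at 0.834 and Epas1 at 0.650. In all, 11 of the 37 genes had an interval above 1 and 11 below 1, where 35.5% and 32.8% of all genes did. The median log2 change was -0.03 for enzymes and 0.09 for regulators, and -0.13 and -0.01 when libraries were scaled to total reads, which moved the median of all genes from 0.02 to -0.07. Over all genes the change in these cells followed gene length, with a median log2 change of 0.45 in the shortest-gene decile and -0.28 in the longest-gene decile. The enzymes had a median length of 3472 bases and the regulators 4412, and with the length trend removed the enzyme median was 0.09 and the regulator median 0.00. Summed neutrophil markers had 11299 CPM with vehicle and 18331 with periostin in CD74+ cells, most of it from S100a8 and S100a9. Camp, Ltf, Retnlg and Mpo were higher too, Ly6g stood at 4.6 and 4.84 CPM, and Cxcr2 and Elane were lower. Cxcr2 had 108 CPM with vehicle and 94.5 with periostin, and Elane 3.53 and 3.41. Chondrocyte markers had 1335 and 949 CPM, and the part of these cells was not tested.

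**Figure D5:**
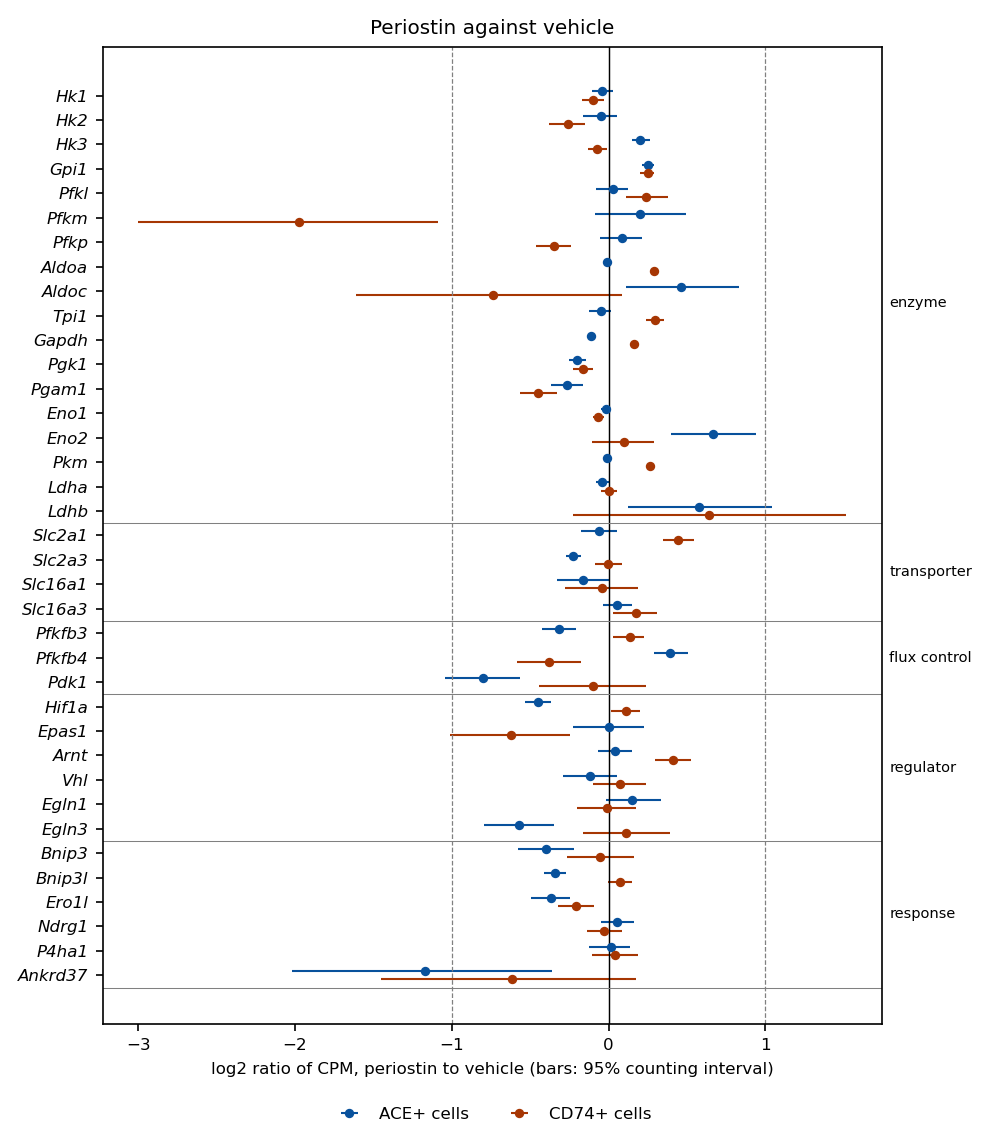
Log2 ratio of CPM with periostin to vehicle for each gene in ACE+ (blue) and CD74+ cells (brown), where bars are 95% counting intervals and dashed lines mark 2-fold. Hif1a, Pfkfb3 and Gapdh lie left of 0 in ACE+ and right of 0 in CD74+ cells, and Hk3 and Pfkfb4 the other way, with bars clear of 0. Other genes also change sides, among them Egln3, Bnip3l and Aldoc, but with at least 1 bar that includes 0. Pfkm in CD74+ cells is the one point past 2-fold apart from Ankrd37 in ACE+ cells, whose change with 1 CPM added is -0.71.

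The periostin changes of the 2 subsets, which share no library, had a Spearman correlation of 0.06 and a Pearson correlation of 0.00 across the 37 genes, and of 0.09 and 0.06 across all 13129 genes compared in both. Counting intervals on the same side of 1 in both subsets were found for 4 of the 37 genes, against 20.5% of all genes. They were Pgk1 at ratios of 0.871 and 0.892, Ero1l at 0.774 and 0.864, Gpi1, glucose-6-phosphate isomerase, at a ratio of 1.19 in each, and Pgam1, phosphoglycerate mutase, at 0.832 and 0.733. None of the 4 passed the common fit in edgeR, with a lowest adjusted p of 0.811 for Pgam1. Intervals lay on opposite sides for 5 of the 37 genes, against 15.3% of all genes.

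The other genes of these pathways were counted in lists written from the pathway, with earlier results of these data known. In the common fit no gene of the 5 lists passed for periostin, with a lowest edgeR adjusted p of 0.496. For the subset, 1 of 21 tested genes around glycolysis was higher in CD74+ cells and 3 lower, 1 of 8 pentose phosphate genes lower, 2 of 9 glycogen genes lower, 0 of 10 genes of the HIF machinery in either direction, and 3 of 28 other HIF target genes higher and 5 lower. Of all genes tested 6.23% were higher and 9.15% lower. The remaining genes of the lists were not in both tables or were too low to test. Among the genes around glycolysis, Eno3, the muscle enolase, had 15.1 and 19.6 CPM for ACE+ against 36.1 and 52.7 for CD74+, the same direction as Eno2. Adpgk, which phosphorylates glucose with ADP, had 160 and 168 against 68.5 and 80.9. The pyruvate dehydrogenase kinase genes Pdk2 and Pdk4 were lower in CD74+ cells, Pdk4 at 12.4 and 11.0 CPM against 0.598 and 1.61, a fitted log2 difference of -3.51 (SE 0.64, edgeR adjusted p = 1.80e-06). Pygl, a glycogen phosphorylase that releases glucose units from glycogen, had 556 and 599 CPM against 244 and 223.

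HIF target genes outside the set went both ways between the subsets. Plin2, a lipid droplet coat protein gene, had 543 and 547 CPM for ACE+ against 1155 and 1305 for CD74+. Hmox1, which degrades heme, had 2186 and 2107 against 3989 and 4793, and Bhlhe40, a transcriptional repressor gene, 298 and 281 against 588 and 618. Vegfa, the vascular growth factor gene, was lower in CD74+ cells at 49.1 and 60.1 CPM against 85.8 and 91.1 for ACE+ (edgeR adjusted p = 0.0114), as were Mxi1, Narf and Tfrc. Summed erythroid markers had 1362 and 1613 CPM against 245 and 436, and their part was not tested. With periostin, 1 target was past 2-fold in ACE+ cells, where 1.47% of all genes were higher and 1.30% lower. It was Ak4, an adenylate kinase of mitochondria, at 7.95 against 2.82 CPM. In CD74+ cells, where 6.69% of all genes were higher and 5.25% lower, 1 target was higher and 1 lower. Car9, a carbonic anhydrase widely used as a hypoxia marker, had 5.29 against 0.897 CPM and the lipase inhibitor gene Angptl4 2.15 against 5.68, with 59 and 24 reads with periostin. Pcx, pyruvate carboxylase, had 2.33 against 8.07 CPM in CD74+ cells, 3.46-fold lower (2.26 to 5.49).

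The authors' deposited table of annotation terms for genes labelled as up in ACE+ cells, whose selection it does not state, lists 637 terms, of which 1, a KEGG pathway of pyruvate metabolism, names glycolysis, pyruvate, hypoxia or HIF-1. Their deposited table for CD74+ cells lists 548 terms and none with those names. Of the 37 genes, Eno2 and Ldhb appear among the genes of any term in the authors' deposited table for ACE+ cells and Ldhb alone in that for CD74+ cells.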

How the data were processed

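The 4 libraries were made from total RNA with a TruSeq kit, per the labels, and the submitters' processing notes name HISAT2 and GRCm38; neither the counter, its strand setting nor the annotation is given in the sources used here. The authors deposited, per the file headers, a signal per gene and library, which is a read count divided by 1 size factor per library: dividing by the smallest step gave whole reads for 100% of values (tolerance 0.001 read). Gene length and a log2 fold change were deposited too, the latter not used, and for annotation terms a p-value that the authors deposited, up to 0.0997. A comparison took genes that reached 1 CPM in either library, and gave no p-value, since each group held 1 library. The common periostin and subset effects used quasi-likelihood tests (edgeR 4.0.16, TMM, Benjamini-Hochberg over 13129 genes) on reads of all 4 libraries, with SE taken from the fold and the F statistic. The planned design had assumed counts or normalized values and was kept. Alternatives were DESeq2 1.42.0, other filters, pseudocounts and scalings, removal of the length trend over 20 bins, and a 1.5-fold call. Members and lists were chosen with earlier results of these data known. Values in all 4 libraries are given for genes with at least 5 CPM changed 1.5-fold in any of 4 comparisons, plus Hk2, Pfkl, Pkm, Ldha, Slc2a1 and Hif1a; Bnip3, Egln3, Ankrd37 and others were named as well after their values were seen, to account for every member. Single values of some genes counted in the pathway lists are not reported here. Scripts were tested on simulated data. Coordinates and exon overlaps are from GENCODE M21 (GRCm38).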

Additional observations from a re-analysis of the deposited data

Results flagged for a closer look

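In 5 of the 37 genes the periostin ratio lay on opposite sides of 1 in the 2 subsets, with both counting intervals apart from 1. That is 13.5% of the 37 genes, where 15.3% of all 13129 genes compared in both subsets met the same rule, and 4 of the 37 (10.8%) had both intervals on the same side, against 20.5% of all genes. Each subset had 1 library per treatment, so the difference between subsets was not tested. The log2 ratio of periostin to vehicle in ACE+ cells minus that in CD74+ cells was 0.77 for Pfkfb4, from 0.40 and -0.38. For Hif1a it was -0.56, from -0.45 and 0.11, and for Pfkfb3 -0.45, from -0.32 and 0.13. Smaller differences of 0.28 and -0.27 were found for the abundant genes Hk3 and Gapdh, whose intervals are narrow because of their read numbers.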

How the results depend on the processing

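With 1 library per group, counting intervals are the only error within a comparison, and leaving out a library leaves the common fits no residual degrees of freedom; the pair of vehicle libraries and the pair of periostin libraries were given instead. No paired analysis was possible because the labels give no replicate numbers by which libraries could be paired; the common fits block on subset or treatment. Of 68 alternative values for the counts and for the enzyme minus regulator medians, 60 stayed within the limits set. The number of called genes for periostin in ACE+ cells went from 0 to 1 with a pseudocount of 0.1 CPM (Ankrd37) and to 3 at 1.5-fold. In CD74+ cells it went from 1 to 0 with a pseudocount of 5 CPM and with a minimum of 5 CPM, which leaves out Pfkm. For CD74+ against ACE+ it went from 7 to 3 with vehicle and from 7 to 4 with periostin at a pseudocount of 5 CPM, and to 14 with periostin at 1.5-fold. The enzyme median minus the regulator median for periostin in CD74+ cells was -0.12 and became 0.10 with the length trend removed. In the subset fit, DESeq2 called 11 genes of which 10 were shared, with Aldoc lost and Pkm gained; size factors of DESeq2 in edgeR gave 12, no filter 11 and a minimum of 5 CPM 9, which leaves Aldoc and Pfkm untested.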
